A study of Mus musculus with 16 samples.

Results

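The 10 genes described here are the *Id* genes *Id1*, *Id2*, *Id3* and *Id4* and 6 genes of bone morphogenetic protein (BMP) signalling, namely *Bmp4*, *Bmpr1a*, *Bmpr1b*, *Bmpr2*, *Smad1* and *Smad6*. They were taken by gene symbol from a table of 30386 genes, in which each of the 10 has 1 row. In all, 8 of them had more than 1 CPM (the reads of a gene scaled to the total of its sample) in at least 4 samples, as did 12533 genes of the table, and were tested; *Bmp4* and *Smad6* stayed under this limit and are given by their values alone.

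The 16 samples were cultured neural stem/progenitor cells (NSPCs), derived from the subventricular zone (SVZ) of mice of 3 months of age and grown as proliferating, non-adherent cultures with EGF and FGF2. The 8 *GFP*-NSPC samples carry a *GFP* control transgene and the 8 *Dbx2*-NSPC samples a transgene that drives constitutive expression of *Dbx2*, a homeobox gene; both kinds of line had been transfected with a plasmid and selected with puromycin. They are bulk lines in pairs from independent derivations, sampled in repeat cultures, and the labels do not say which line a sample came from. The spread over samples is thus not a spread over independent lines. The samples of each group are numbered 1 to 8, and the comparison of the transgenes was made over all samples, within the numbers 1 to 4 and within the numbers 5 to 8.

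BMPs are secreted ligands that bring together type I receptors (such as Bmpr1a and Bmpr1b) and type II receptors (such as Bmpr2); the type I receptor then phosphorylates Smad1, Smad5 and Smad9, which enter the nucleus with Smad4. The *Id* genes are direct targets of this cascade in many cell types. Id proteins lack the basic region that contacts DNA and hold E proteins and other basic helix-loop-helix (bHLH) factors away from their E-box sites, while Smad6 is an inhibitory Smad. In the adult SVZ, BMP signalling is known for its part in stem cell quiescence and in the choice between glial and neuronal fates.

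The samples held between 1803928 and 3293285 reads. *Dbx2* itself lay between 30.7 and 171 CPM in *GFP*-NSPCs and between 114 and 232 CPM in *Dbx2*-NSPCs, higher in the *Dbx2*-NSPC sample of every number. Its log2 fold change (on log2(CPM + 0.5), as throughout) was 0.54 in the numbers 1 to 4, with an adjusted p of 0.0891 in limma (0.00557 with the replicate number as a block), and 1.99 in the numbers 5 to 8, with an adjusted p of 5.67e-08; the change in the numbers 5 to 8 exceeded that in the numbers 1 to 4 by 1.45 (adjusted p = 1.04e-04). The table does not separate reads of the transgene from those of the endogenous gene. The 6 markers of neural stem and progenitor cells summed to between 4750 and 5290 CPM in *GFP*-NSPCs and between 3810 and 5030 CPM in *Dbx2*-NSPCs, and 3 of them (*Fabp7*, *Pax6*, *Msi1*) were lower in *Dbx2*-NSPCs, joined with the block by *Sox2* (adjusted p = 5.08e-04). Over all samples 7.78% of all tested genes were lower. In bulk samples, fewer cells of a type and less RNA per cell cannot be told apart.

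Of the 8 tested genes, 4 changed between *GFP*-NSPCs and *Dbx2*-NSPCs over all 16 samples (limma adjusted p under 0.05, Benjamini-Hochberg over all 12533 genes), where 15.8% of all tested genes did. *Id1* and *Id4* were higher in *Dbx2*-NSPCs, against 8.03% of all tested genes, and *Id3* and *Bmpr1b* were lower, against 7.78%. In the numbers 1 to 4, *Id1* (higher, as 8.19% of all tested genes were) and *Bmpr1b* (lower, as 7.37% were) passed the test, 2 of 8 where 15.6% of all tested genes did; in the numbers 5 to 8, *Id1*, *Id3* and *Bmpr1b* passed, 3 of 8 against 23.2% (11.5% higher, 11.7% lower). The change itself differed between the 2 sets of numbers for *Id2* alone, 1 of 8 against 9.44%; a difference (numbers 5 to 8 less numbers 1 to 4) above 0, as in *Id2*, was called for 4.4% of all tested genes and one below 0 for 5.04%.

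**Figure D1:**
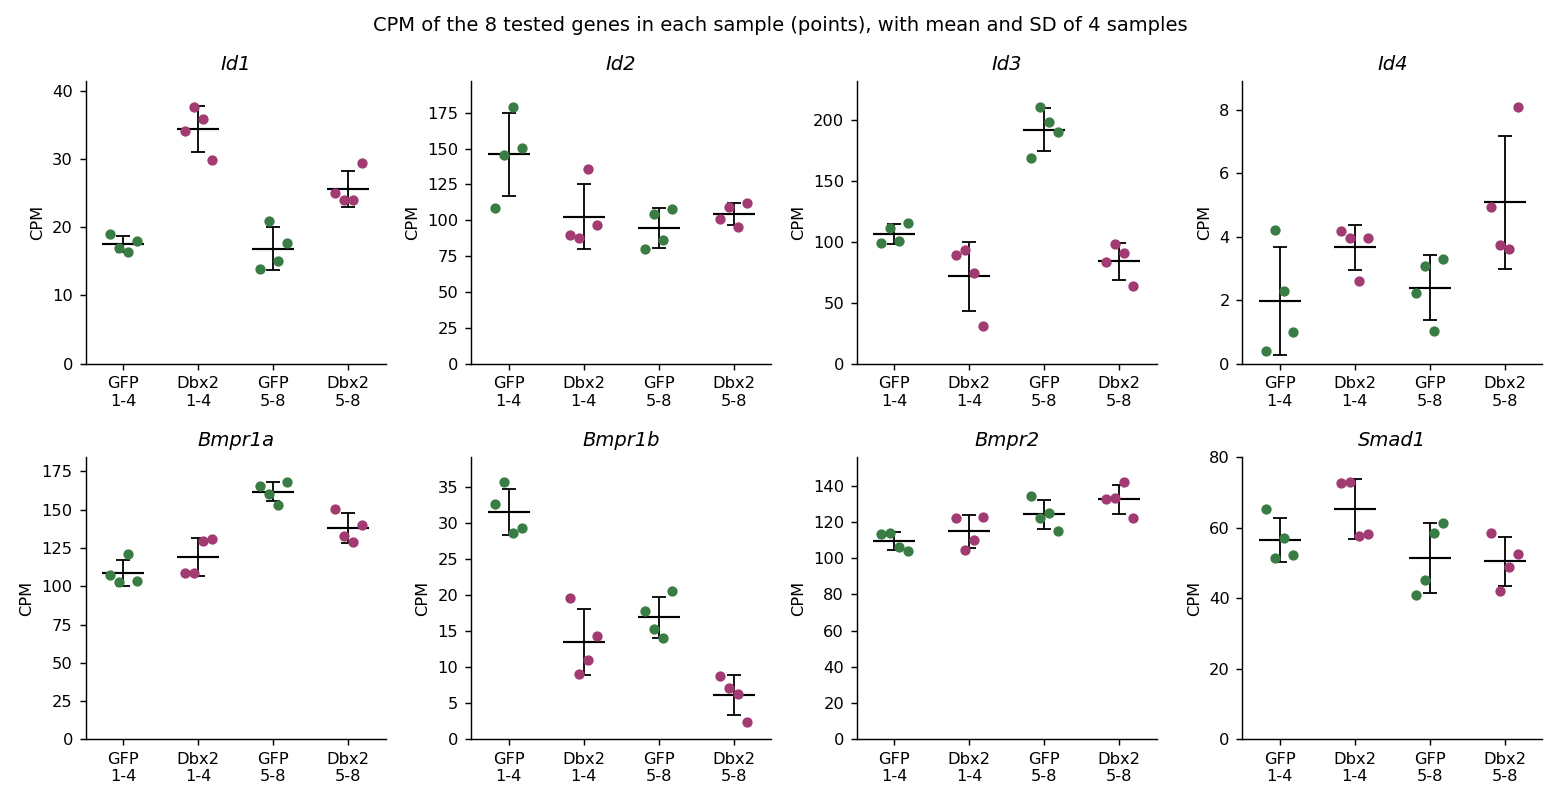
CPM (vertical axes, linear, from 0) of the 8 tested genes in the 16 samples, 1 point for each sample (green, *GFP*-NSPCs; purple, *Dbx2*-NSPCs), in columns by transgene and number, with the mean and SD of 4 samples as black lines. *Id1* lay higher and *Id3* and *Bmpr1b* lower in the *Dbx2*-NSPCs of both sets of numbers without overlap inside a set, while *Bmpr2* and *Smad1* overlapped in both. Of all tested genes, 19.6% did not overlap in the numbers 1 to 4 and 24.8% in the numbers 5 to 8.

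*Id1* (chr2:152736251-152737410, GRCm38, plus strand) encodes an inhibitor of bHLH factors and is among the classical early targets of BMP signalling. In *GFP*-NSPCs numbered 1 to 8 it was at 18.9, 16.9, 16.3, 18.0, 13.9, 20.9, 15.0 and 17.7 CPM. The *Dbx2*-NSPCs of the same numbers had 34.0, 37.6, 35.8, 29.8, 24.99, 23.9, 23.9 and 29.4 CPM. All 8 *Dbx2*-NSPC samples thus lay above the highest *GFP*-NSPC sample, which 3.41% of all tested genes did in one direction or the other. The means were 17.2 ± 2.21 CPM and 29.9 ± 5.45 CPM (SD over 8 samples), and the log2 fold change was 0.77 (SE 0.127, 95% confidence interval 0.51 to 1.04, limma adjusted p = 3.16e-04). In the numbers 1 to 4 the log2 fold change was 0.95 (adjusted p = 0.00133) and in the numbers 5 to 8 it was 0.60 (adjusted p = 0.0209). The difference between these, -0.35, did not pass the test (adjusted p = 0.417), and the call in the numbers 5 to 8 was lost without *GFP* replicate 5 (adjusted p = 0.0545), *GFP* replicate 7 (0.0594) or *Dbx2* replicate 8 (0.0582). The *GFP*-NSPCs of the 2 sets overlapped, at 17.5 ± 1.17 CPM and 16.9 ± 3.11 CPM (SD, n = 4 each), and the order of the group means ran from these through the *Dbx2*-NSPCs numbered 5 to 8 (25.6 ± 2.59 CPM) to those numbered 1 to 4 (34.3 ± 3.36 CPM).

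*Id3* (chr4:136143497-136145755, plus strand), a second inhibitor of bHLH factors that is often induced together with *Id1*, went the other way. Its values in *GFP*-NSPCs were 99.1, 111, 100 and 115 CPM in the numbers 1 to 4 and 169, 211, 198 and 190 CPM in the numbers 5 to 8. In *Dbx2*-NSPCs they were 88.9, 93.5, 74.2 and 31.2 CPM in the numbers 1 to 4 and 83.4, 98.5, 90.7 and 63.5 CPM in the numbers 5 to 8. Every *Dbx2*-NSPC sample lay below every *GFP*-NSPC sample, although the highest of the former and the lowest of the latter were only 98.5 and 99.1 CPM. The groups did not overlap, in either direction, for 3.41% of all tested genes. Over all samples the means were 149 ± 47.5 and 78.0 ± 21.98 CPM (SD, n = 8 each), with a log2 fold change of -0.94 (SE 0.222, 95% confidence interval -1.40 to -0.48, limma adjusted p = 0.00649).

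The decrease of *Id3* was tested apart in each set. In the numbers 5 to 8 *Id3* had a log2 fold change of -1.20 (95% confidence interval -1.47 to -0.94, limma adjusted p = 8.88e-06). In the numbers 1 to 4 it had one of -0.68 (95% confidence interval -1.27 to -0.08), which missed the threshold (adjusted p = 0.122) and was -0.32 without *Dbx2* replicate 4. The *GFP*-NSPCs of the 2 sets did not overlap for this gene, with means of 107 ± 8.05 and 192 ± 17.6 CPM (SD, n = 4 each), whereas the *Dbx2*-NSPCs, at 71.97 ± 28.4 and 84.0 ± 15.0 CPM, did. The difference between the 2 changes was -0.53 and did not pass the test (adjusted p = 0.334). This rested on *Dbx2* replicate 4, the sample at 31.2 CPM; without it the difference was -0.88 with an adjusted p of 7.61e-04.

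As *Id1* rose and *Id3* fell, the ratio of the pair shifted within each sample. The log2 ratio of *Id1* to *Id3* ranged from -3.68 to -2.36 in *GFP*-NSPCs and from -2.02 to -0.07 in *Dbx2*-NSPCs, with means of -3.03 ± 0.51 and -1.32 ± 0.62 (SD, n = 8 each). This ratio was formed after the values of both genes had been seen and is given as a description without a test. The 2 genes share no stretch of 31 bases of their transcripts with each other or with any other annotated gene, so their reads can be told apart.

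**Figure D2:**
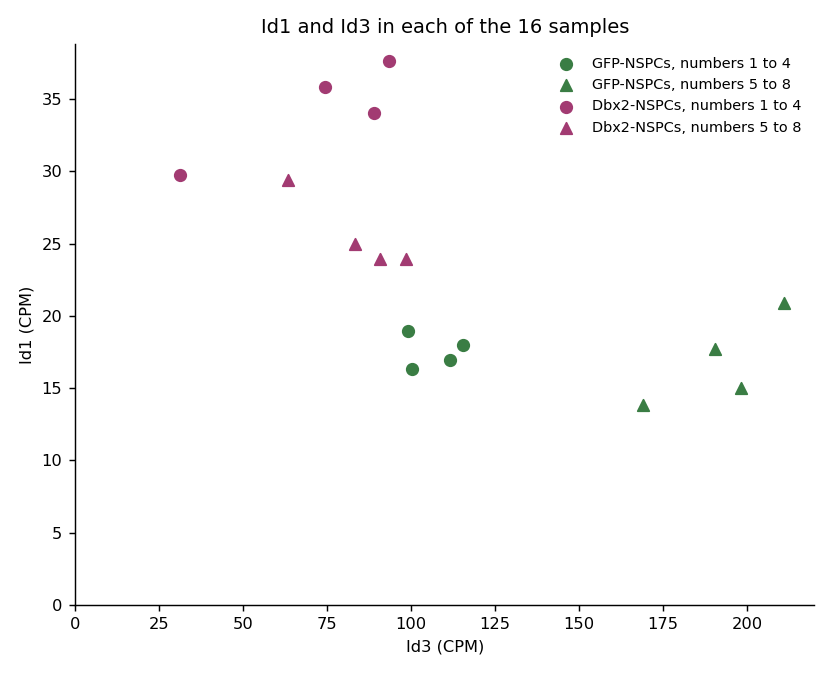
*Id1* (vertical axis, CPM) against *Id3* (horizontal axis, CPM) in the 16 samples, 1 symbol for each, with *GFP*-NSPCs in green, *Dbx2*-NSPCs in purple, numbers 1 to 4 as circles and numbers 5 to 8 as triangles; both axes are linear and start at 0. The *Dbx2*-NSPCs lie at 23.9 CPM or more of *Id1* and at 98.5 CPM or less of *Id3*, and the *GFP*-NSPCs numbered 5 to 8 stand apart at 169 to 211 CPM of *Id3*.

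*Id2* (chr12:25093799-25097140, minus strand), the *Id* gene best known from lymphoid and neural precursors, did not change over all samples, with means of 120 ± 34.5 CPM with *GFP* and 103 ± 15.7 CPM with *Dbx2* (SD, 8 samples each), and a log2 fold change of -0.18 (95% confidence interval -0.49 to 0.13, limma adjusted p = 0.447). In the numbers 1 to 4 the *GFP*-NSPCs had 109, 146, 179 and 150 CPM and the *Dbx2*-NSPCs 89.6, 87.4, 136 and 96.9 CPM. The numbers 5 to 8 had 79.8, 104, 86.4 and 108 CPM with *GFP* and 101, 109, 95.3 and 112 CPM with *Dbx2*. Taken by number, *Dbx2*-NSPCs were lower in 4 of 4 numbers of the first set and higher in 4 of 4 numbers of the second, but the groups overlapped in both. Within a set same-numbered samples hardly deviated together, so these counts depend on how the samples are numbered. The log2 fold changes of *Id2* were -0.51 (adjusted p = 0.0618, or 0.0130 with the replicate number as a block) and 0.15 (adjusted p = 0.370). Their difference of 0.66 passed the test (95% confidence interval 0.23 to 1.08, limma adjusted p = 0.0427, 0.00486 with the block). The call was lost in 12 of 26 alternatives, among them 10 of the 16 that leave out 1 sample, with adjusted p-values from 0.0563 to 0.109.

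*Id4* (chr13:48261228-48266026, plus strand), which encodes an Id protein known from quiescent neural stem cells of the adult hippocampus, was counted with few reads. The 8 *GFP*-NSPC samples had 0.40, 4.23, 2.28, 1.0, 2.22, 3.07, 1.02 and 3.29 CPM, or 48 reads in all. The 8 *Dbx2*-NSPC samples had 4.17, 3.95, 2.61, 3.95, 4.93, 3.73, 3.61 and 8.10 CPM, or 103 reads. *Dbx2*-NSPCs were higher in 7 of 8 numbers, and the groups overlapped. The log2 fold change of *Id4* was 0.98 (SE 0.323, 95% confidence interval 0.31 to 1.66, limma adjusted p = 0.0437), just past the threshold. It lost the call in 16 of 26 alternatives, with edgeR on whole reads (0.072) and without any 1 of 12 samples (adjusted p from 0.0541 to 0.0848), namely *GFP* replicates 1, 3, 4, 5 and 7 and *Dbx2* replicates 1, 2, 4, 5, 6, 7 and 8. In neither set of numbers alone did *Id4* pass (log2 fold changes 1.004 and 0.965, adjusted p = 0.184 and 0.0795).

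**Figure D3:**
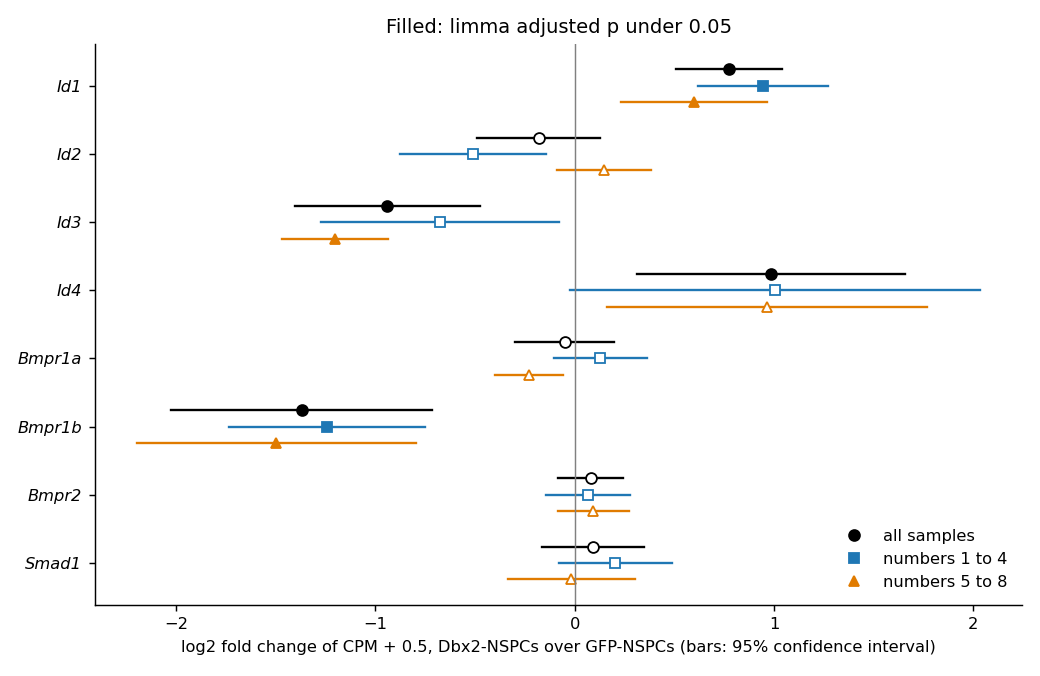
log2 fold change of CPM + 0.5 in *Dbx2*-NSPCs over *GFP*-NSPCs (horizontal axis) for the 8 tested genes, over all 16 samples (black circles), the numbers 1 to 4 (blue squares) and the numbers 5 to 8 (orange triangles), with 95% confidence intervals as bars and filled symbols for limma adjusted p under 0.05. *Id1* and *Bmpr1b* are filled in all 3 comparisons, *Id3* in 2 of them and *Id4* over all samples only, and the 3 intervals of *Bmpr2* and of *Smad1* each cross 0.

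Among the receptors, *Bmpr1b* (chr3:141837136-142169425, minus strand), a type I BMP receptor, was lower in *Dbx2*-NSPCs of every number. The *GFP*-NSPCs numbered 1 to 4 had 32.6, 35.6, 28.7 and 29.3 CPM and those numbered 5 to 8 had 17.7, 15.3, 14.0 and 20.6 CPM. With *Dbx2* the values were 19.6, 9.11, 11.1 and 14.4 CPM and then 8.80, 7.14, 6.32 and 2.36 CPM. Within each set the groups did not overlap, as for 19.6% of all tested genes in the numbers 1 to 4 and 24.8% in the numbers 5 to 8, but over all samples they did, where the *GFP*-NSPCs numbered 5 to 8 ran into the range of the *Dbx2*-NSPCs numbered 1 to 4. The means over 8 samples were 24.2 ± 8.33 and 9.84 ± 5.26 CPM (SD), a 2.46-fold lower mean, with a log2 fold change of -1.37 (SE 0.313, 95% confidence interval -2.02 to -0.72, limma adjusted p = 0.00518). The change of *Bmpr1b* was -1.24 in the numbers 1 to 4 (adjusted p = 0.00303) and -1.50 in the numbers 5 to 8 (adjusted p = 0.0041), with a difference of -0.25 that did not pass the test (adjusted p = 0.781).

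The 250 bases before the annotated start were found in RefSeq (GRCm38.p6) for 9 of the 10 genes, at 11 starts; *Id1* was not matched. The windows of *Id4* and of the most upstream matched RefSeq start of *Bmpr1b* are shown for a gene that was higher and a gene that was lower in *Dbx2*-NSPCs. The call of *Id4* was lost in 16 of 26 alternatives. Both windows are among the 5 of 11 that lie outside the exons of the GENCODE annotation. The *Bmpr1b* window lies within the GENCODE span of the gene, which begins at 142169425 on the minus strand, and not before it. Capitals mark the E-box CANNTG bound by bHLH dimers, the GC-rich Smad element GGCGCC, the Smad-binding element CAGAC and the homeodomain core TAAT, each read on both strands, and no marked motif overlaps another in these 2 windows.
*Id4*, chr13:48260866-48261115, plus strand: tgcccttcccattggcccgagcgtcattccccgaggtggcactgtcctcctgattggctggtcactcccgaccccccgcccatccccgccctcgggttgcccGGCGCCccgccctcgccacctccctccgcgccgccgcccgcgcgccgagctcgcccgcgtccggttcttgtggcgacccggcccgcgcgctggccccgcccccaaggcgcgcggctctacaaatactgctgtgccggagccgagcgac
*Bmpr1b*, chr3:141982265-141982514, minus strand: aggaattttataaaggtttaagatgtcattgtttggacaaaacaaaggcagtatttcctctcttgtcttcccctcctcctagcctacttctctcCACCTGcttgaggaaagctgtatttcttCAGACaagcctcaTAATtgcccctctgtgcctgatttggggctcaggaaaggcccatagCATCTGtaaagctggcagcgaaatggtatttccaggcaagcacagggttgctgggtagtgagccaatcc

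The *Id4* window holds 1 GGCGCC and none of the other 3 motifs, and that of *Bmpr1b* holds 2 E-boxes, 1 CAGAC and 1 TAAT. The *Bmpr1b* windows not shown differ from it. That at chr3:141931421-141931670 holds 1 E-box, that at chr3:141931589-141931838 holds 1 CAGAC, and neither holds TAAT. Among 32851 windows of 250 bases in RefSeq, 66.2% hold CANNTG, 9.59% GGCGCC, 42.2% CAGAC and 54.9% TAAT. These are matches of letters, not binding sites.

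*Bmpr1a* (chr14:34410734-34503341, minus strand), the more widely expressed type I receptor, had 108, 103, 121 and 104 CPM in the *GFP*-NSPCs numbered 1 to 4 and 109, 108, 129 and 131 CPM in the *Dbx2*-NSPCs of the same numbers. In the numbers 5 to 8 it had 166, 160, 153 and 168 CPM with *GFP* and 151, 133, 129 and 140 CPM with *Dbx2*. The groups did not overlap there, as for 24.8% of all tested genes. The log2 fold change over all samples was -0.05 (95% confidence interval -0.30 to 0.20, limma adjusted p = 0.821). In the numbers 5 to 8 it was -0.23 (95% confidence interval -0.40 to -0.06), at the edge of the threshold with an adjusted p of 0.0505, or 0.0482 with the replicate number as a block. In the numbers 1 to 4 *Bmpr1a* had a log2 fold change of 0.13 (adjusted p = 0.470), and the difference of -0.36 between the sets did not pass (adjusted p = 0.112).

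The type II receptor *Bmpr2* (chr1:59763400-59879014, plus strand) lay between 104 and 134 CPM in *GFP*-NSPCs (median 115 CPM) and between 105 and 142 CPM in *Dbx2*-NSPCs (median 122 CPM). Its log2 fold change was 0.08 with a 95% confidence interval of -0.08 to 0.24 (limma adjusted p = 0.536). *Smad1* (chr8:79338395-79399518, minus strand), the receptor-activated Smad of this group of genes, ranged from 41.0 to 65.3 CPM (median 54.7 CPM) and from 41.9 to 72.8 CPM (median 57.9 CPM), and its log2 fold change was 0.09 with a 95% confidence interval of -0.16 to 0.35 (adjusted p = 0.669). For both genes the groups overlapped in each set of numbers, and neither passed the test in any of the 27 alternatives over all samples.

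*Bmp4* (chr14:46383520-46390669, minus strand), a BMP ligand made by cells of the adult SVZ, had 0 reads in each of the 8 *GFP*-NSPC samples and in 6 *Dbx2*-NSPC samples, with 1 read (0.32 CPM) in *Dbx2* replicate 1 and 4 reads (1.24 CPM) in *Dbx2* replicate 6. *Smad6* (chr9:63953076-64022059, minus strand), an inhibitory Smad that is itself a BMP target, had 2 reads in *GFP*-NSPCs, in replicates 3 and 7 (0.33 and 0.34 CPM), and 2 reads in *Dbx2*-NSPCs, both in replicate 6 (0.62 CPM). At these depths a count of 0 allows up to 3 reads, or 0.911 to 1.66 CPM, so a difference between the groups was not detectable for either gene. This limit covers counting error only.

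The levels of neighbouring genes were set beside those of the *Id* and BMP genes. The 20 tested genes nearest to *Id3*, 10 on each side, had a median log2 fold change of 0.31 over all samples and 0.71 in the numbers 1 to 4, higher than around 98.3% and 98.9% of genes, and of 0.04 in the numbers 5 to 8. Around *Id1* the median was 0.21 over all samples (higher than around 96.0% of genes), and around *Bmpr1b* it was -0.02 (50.1%). These medians describe the neighbourhoods and were not tested.

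The other genes of the pathway were taken from 6 lists with 77 genes, of which 50 could be tested. Over all samples 7 of these 50 changed, 2 higher and 5 lower, or 14% against 15.8% of all tested genes, and their median log2 fold change was -0.11 against -0.02 for all tested genes. When the replicate number was fitted as a block, 13 of the 50 passed, where 21.7% of all tested genes did. In the numbers 1 to 4 there were 12 (8 higher, 4 lower), or 24% against 15.6%, and in the numbers 5 to 8 there were 15 (5 higher, 10 lower), or 30% against 23.2%. Of the 5 genes that passed in both sets, 3 did so with opposite signs. The share of all tested genes that passed in both sets was not counted, so no excess can be read from the 5.

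Of 13 other ligands, *Bmp7* was the 1 that could be tested. It encodes a secreted BMP and had a mean of 34.5 ± 17.7 CPM with *GFP* and 79.9 ± 27.2 CPM with *Dbx2* (SD, 8 samples each). The *GFP*-NSPCs had 50.0, 50.8, 55.4 and 46.3 CPM in the numbers 1 to 4 and 17.7, 21.8, 21.5 and 12.3 CPM in the numbers 5 to 8. The *Dbx2*-NSPCs had 102, 88.3, 101 and 122 CPM and then 45.1, 62.1, 61.0 and 57.4 CPM. In both sets every *Dbx2*-NSPC sample was above every *GFP*-NSPC sample. Such a lack of overlap, in either direction, held for 19.6% of all tested genes in the numbers 1 to 4. In the numbers 5 to 8 it held for 24.8%. The log2 fold change of *Bmp7* was 1.32 over all samples (limma adjusted p = 0.00492), 1.02 in the numbers 1 to 4 (adjusted p = 1.98e-04) and 1.62 in the numbers 5 to 8 (adjusted p = 1.95e-05).

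Of 9 further receptors and co-receptors, 6 were tested and 2 were lower, or 33.3%, where 7.78% of all tested genes were lower. Both are type II receptors that BMPs share with activins. In the numbers 1 to 4 neither *Acvr2a* (limma adjusted p = 0.133) nor *Acvr2b* (0.137) passed. In the numbers 5 to 8 *Acvr2b* passed (0.0133) and *Acvr2a* did not (0.0980). The mean of *Acvr2b* was 16.04 ± 3.64 CPM with *GFP* and 9.12 ± 2.48 CPM with *Dbx2* (SD over 8 samples), and its log2 fold change was -0.79 (adjusted p in limma 0.00724). *Acvr2a* had 12.8 ± 2.67 and 8.11 ± 2.71 CPM, a log2 fold change of -0.67 (adjusted p = 0.0271) whose call was lost without *GFP* replicate 2, 6 or 7 or *Dbx2* replicate 1 or 7 (adjusted p from 0.0502 to 0.055). *Acvr2a* overlaps *Orc4* on the opposite strand, and the strand used in counting is not stated, so its reads are uncertain. The co-receptor *Rgma*, named after its values were seen, had a log2 fold change of -0.23 in the numbers 1 to 4 (adjusted p = 0.353) and was higher by 0.84 in the numbers 5 to 8 (adjusted p = 6.56e-05), a difference between the sets of 1.07 (adjusted p = 3.71e-04).

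Of the 16 Smads and intracellular regulators, 15 were tested and 1 changed over all samples, or 6.67% against 15.8% of all tested genes. *Smad5*, which carries the signal alongside Smad1, went from 246 ± 23.4 to 197 ± 15.98 CPM (SD over 8 samples), and its log2 fold change was -0.31 (adjusted p in limma 0.00644). In number 8 the samples were level, at 200.28 CPM with *GFP* and 200.22 CPM with *Dbx2*. The change of *Smad5* was -0.26 in the numbers 1 to 4, which missed the threshold (adjusted p = 0.0879), and -0.37 in the numbers 5 to 8 (adjusted p = 0.0134). *Ski*, a co-repressor that binds Smads and that was named after its values were seen, passed in both sets with opposite signs. It rose by 0.87 in the numbers 1 to 4 (adjusted p = 0.00236), from 57.0 ± 12.9 to 103 ± 9.75 CPM, and fell by 0.80 in the numbers 5 to 8 (adjusted p = 1.61e-04), from 79.6 ± 9.13 to 45.3 ± 5.01 CPM (SD, n = 4 each). The difference of -1.67 had an adjusted p of 1.13e-06.

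Of 20 extracellular antagonists and modulators, 13 were tested and 0 passed in limma over all samples, where 15.8% of all tested genes did. At an unadjusted p under 0.05 there were 2 (*Fstl1* and *Crim1*), and edgeR and DESeq2 on whole reads each called 1, *Chrdl1*. With the replicate block 3 passed, *Chrdl1* (adjusted p = 0.0497), *Crim1* (0.0318) and *Htra1* (0.0474), where 21.7% of all tested genes did. With the number set as a covariate *Chrdl1*, *Crim1* and *Fstl1* did, where 3034 of the 12533 tested genes passed. In each set of numbers 4 passed, or 30.8%, against 15.6% of all tested genes in the numbers 1 to 4 and 23.2% in the numbers 5 to 8. *Fstl1*, a follistatin-like secreted protein with the smallest p of the list (log2 fold change -0.45, adjusted p = 0.148), fell by 1.01 in the numbers 5 to 8 (adjusted p = 7.77e-05). *Nbl1* and *Chrdl1*, both secreted BMP antagonists, were named after their values were seen, as were *Crim1* and *Htra1*. *Nbl1* was higher by 0.65 in the numbers 1 to 4 (adjusted p = 0.0348) and fell by 1.12 in the numbers 5 to 8 (adjusted p = 5.03e-05). Its call in the numbers 1 to 4 was lost in 9 of 19 alternatives, among them each sample left out other than *GFP* replicate 1 (adjusted p from 0.057 to 0.105). *Chrdl1* fell in the numbers 1 to 4 from 68.1 ± 11.9 to 14.1 ± 2.76 CPM (SD, n = 4 each; log2 fold change -2.24, adjusted p = 1.18e-05), while in the numbers 5 to 8 it was at 4.55 ± 1.81 and 4.68 ± 1.38 CPM.

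**Figure D4:**
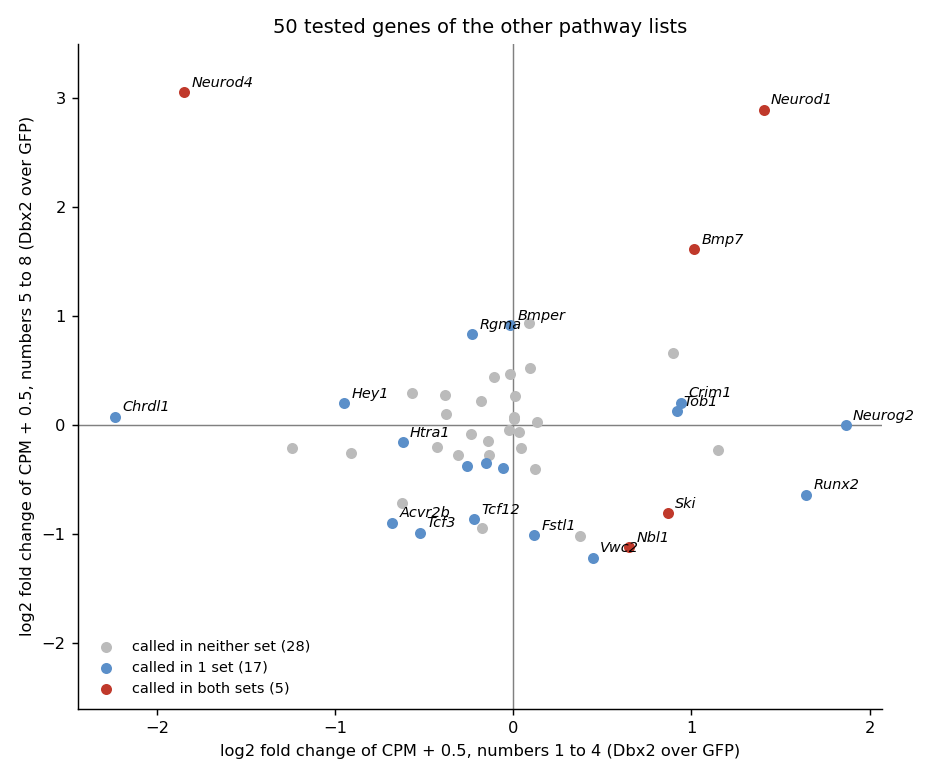
log2 fold change of CPM + 0.5 in the numbers 1 to 4 (horizontal axis) and in the numbers 5 to 8 (vertical axis), *Dbx2*-NSPCs over *GFP*-NSPCs, for the 50 tested genes of the other pathway lists, with colours for limma adjusted p under 0.05 in neither set (28 genes), 1 set (17) or both (5). *Bmp7* and *Neurod1* lie above 0 on both axes, while *Ski*, *Nbl1* and *Neurod4* passed with opposite signs. In the numbers 1 to 4 *Neurod4* rests on 15 reads with *GFP* against 0 with *Dbx2*.

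Of 9 further BMP targets outside the *Id* genes, 6 were tested and 0 passed in limma over all samples, where 15.8% of all tested genes did. In edgeR and in DESeq2 0 passed as well, and 1 had an unadjusted p under 0.05 in limma, *Hey1*. With the replicate block *Junb*, named after its values were seen, passed (adjusted p = 0.00457). *Hey1*, a bHLH repressor shared with Notch signalling, had a log2 fold change of -0.37 (adjusted p = 0.154). *Hey1* fell by 0.95 in the numbers 1 to 4 (adjusted p = 0.00293), from 82.2 ± 6.33 to 43.5 ± 12.4 CPM (SD, n = 4 each), and had a log2 fold change of 0.21 in the numbers 5 to 8 (adjusted p = 0.213); the difference of 1.16 passed the test (adjusted p = 3.90e-04).

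The bHLH factors that Id proteins bind, or that share their E-box sites, counted 10 genes, of which 9 were tested. Over all samples 1 rose and 2 fell, or 33.3% called against 15.8% of all tested genes. The E proteins *Tcf3* and *Tcf12*, the common dimer partners of tissue-specific bHLH factors, were lower in *Dbx2*-NSPCs of all 8 numbers. *Tcf3* went from 108 ± 24.2 to 63.2 ± 11.1 CPM (log2 fold change -0.76, limma adjusted p = 0.00122) and *Tcf12* from 383 ± 76.1 to 260 ± 30.3 CPM (log2 fold change -0.54, adjusted p = 0.00241; SD, n = 8 each). Neither passed in the numbers 1 to 4, with log2 fold changes of -0.53 for *Tcf3* (adjusted p = 0.0729, or 0.0117 with the block) and -0.22 for *Tcf12* (0.165), while in the numbers 5 to 8 *Tcf3* fell by 0.98 (1.14e-04) and *Tcf12* by 0.86 (1.45e-05). The difference between the sets passed for *Tcf12* (-0.64, adjusted p = 0.00328) and not for *Tcf3* (-0.46, adjusted p = 0.257). *Neurod1*, a proneural bHLH factor, was higher by 2.15 (adjusted p = 0.00538), at 2.89 ± 1.91 against 7.34 ± 0.91 CPM in the numbers 1 to 4 and 5.56 ± 0.74 against 44.6 ± 4.07 CPM in the numbers 5 to 8 (SD, n = 4 each). The call of *Neurod1* in the numbers 1 to 4 (adjusted p = 0.0379) was lost in 10 of 19 alternatives, among them each sample left out other than *GFP* replicate 3 (adjusted p from 0.0522 to 0.101). *Neurod4*, its relative and named after its values were seen, was listed at 1.0 to 1.76 CPM in the *GFP*-NSPCs and at 0 in the *Dbx2*-NSPCs of the numbers 1 to 4. In the numbers 5 to 8 it was at 0 to 0.82 CPM and 3.17 to 8.58 CPM. These are 15 reads against 0 in the numbers 1 to 4 and 2 against 56 in the numbers 5 to 8. The decrease in the numbers 1 to 4 passed in limma (adjusted p = 0.00482) and in all 18 alternatives (adjusted p up to 0.0203). As a count of 0 allows up to 3 reads in a sample, the single samples of these numbers lie near the limit of counting.

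**Figure D5:**
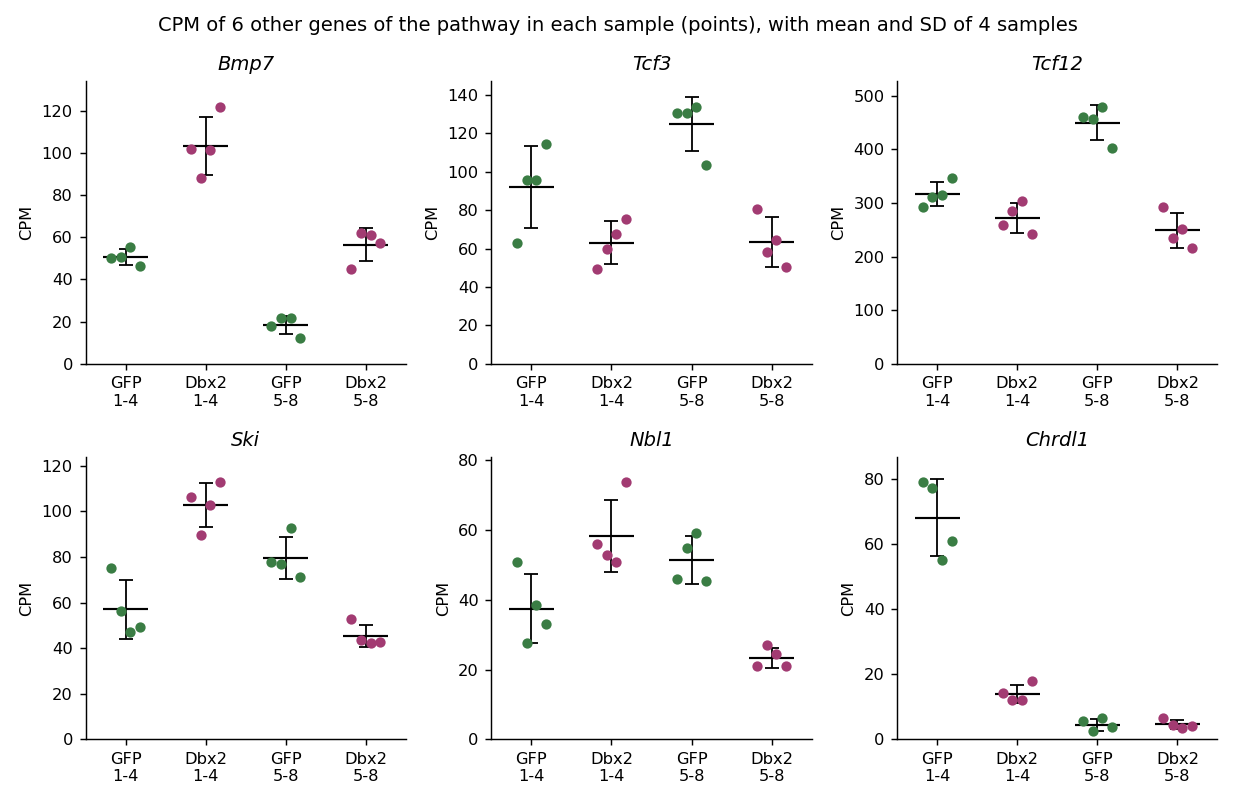
CPM (vertical axes, linear, from 0) of *Bmp7*, *Tcf3*, *Tcf12*, *Ski*, *Nbl1* and *Chrdl1* in the 16 samples, 1 point for each sample (green, *GFP*-NSPCs; purple, *Dbx2*-NSPCs), in columns by transgene and number, with the mean and SD of 4 samples as black lines. *Bmp7* is higher with *Dbx2* in both sets, *Ski* and *Nbl1* are higher in the numbers 1 to 4 and lower in the numbers 5 to 8, and *Chrdl1* is at 55.1 to 79.0 CPM in the *GFP*-NSPCs numbered 1 to 4 and at 17.9 CPM or less in the other samples.

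Markers of other cell types moved with the transgene in part, and *Gfap* and *Flt1* are named among them after their values were seen. Over all samples 8.03% of all tested genes were higher and 7.78% lower. The 6 astrocyte markers summed to between 713 and 2490 CPM in *GFP*-NSPCs and between 522 and 1420 CPM in *Dbx2*-NSPCs; *Gfap*, a glial filament gene and BMP-responsive in neural precursors, was higher (5.77 ± 7.48 against 42.6 ± 24.7 CPM, SD, n = 8 each, limma adjusted p = 3.54e-04), and *Slc1a3* and *Aldh1l1* were lower. Of 6 endothelial markers, *Flt1* was higher (1.18 ± 0.87 against 6.84 ± 2.65 CPM, adjusted p = 3.47e-04) while *Cdh5* and *Cldn5* had 0 reads in every sample, and of 6 ependymal markers *Ccdc153* and *Rarres2* were higher (with the block also *Foxj1*, adjusted p = 0.0307) while *Tmem212* and *Pifo* were at 0. The neuronal markers summed to 840 to 1290 CPM and 706 to 906 CPM, with *Map2* lower, and the oligodendrocyte lineage markers to 13.2 to 47.3 CPM and 10.2 to 76.1 CPM. Microglial markers did not exceed 1.96 CPM in sum in any sample, nor mural and fibroblast markers 3.73 CPM. The part of these markers in the changes of the *Id* and BMP genes was not tested.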

How the data were processed

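RNA from 16 NSPC samples had been made into 3′ mRNA libraries (QuantSeq) and sequenced in single-end mode. The authors trimmed the reads with bbduk and aligned them with STAR to GRCm38/mm10; FastQC 0.11.8, STAR 2.5.0a and edgeR 3.36 are named in the submitters' processing notes, while which tool counted the reads, and on which strand, is not given in the sources used here. The authors deposited 1 table of CPM, rounded to 2 decimals, and 0 of its sample columns were left out. The lowest steps of each column gave the CPM of 1 read, and 100.0% of the values were whole reads within 0.006 CPM, with totals of 1803928 to 3293285 reads. In a 3′ library the CPM of different genes do not follow their length, and levels were compared between samples and not between genes.

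The labelled transgene set the groups; the labels lack the cell line of each sample, and no covariate was fitted. Per the study's text, the cultures came from 4 independent experiments for each of 2 pairs of lines, and the authors fitted the cell line as a covariate. The labels do not tie samples to lines or experiments. The SDs, intervals and p-values given here thus measure repeat cultures of these lines and not independent lines. The test was limma 3.58.1 under R 4.3.3 on log2(CPM + 0.5), for genes above 1 CPM in 4 samples or more (eBayes with trend, 2-sided, Benjamini-Hochberg, threshold 0.05), and it was tested on simulated data first. The numbers 1 to 4 and 5 to 8 were fitted apart, and the difference of their changes is the interaction term. Fold changes understate the change of genes with few reads.

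Same-numbered samples of the 2 groups deviated from their group means with correlations of 0.152 to 0.303. From the means of their group and set they deviated with correlations of -0.00741 to 0.119 (mean 0.0403). By the former the replicate number, which comes from the labels, was taken as a pairing, and blocked values are given where they change a call. Within a set of numbers the samples hardly deviated together, so blocked values there rest on a pairing that these correlations do not show. Over all samples the block also takes out the difference between the 2 sets. Blocked calls over all samples are thus no sign of a pairing by number. No pair of samples of the same group agreed within sampling noise, and pairs across the groups were not compared in this way.

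Besides the 10 genes and *Dbx2*, the text names the genes of each pathway list that passed over all samples, or in both sets with the same sign, at most 6 for each list, and at least the gene of smallest p; others are said to be named after their values were seen. The genes and lists were chosen with earlier results of these data known. Positions and overlaps are from GENCODE M21. Alternatives were other pseudocounts (0.1, 2), filters (none, a mean of at least 10 CPM), median-of-ratios and quantile scaling, no trend, the replicate block, the number set as a covariate, 4 groups in 1 fit, leaving out each sample, and count tests on the whole reads with edgeR (4.0.16) and with DESeq2 (1.42.0).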

Additional observations from a re-analysis of the deposited data

Results flagged for a closer look

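A sample apart from the rest of its group was looked for in 116 groups of 20 genes, and 11 were found. The limit used gives about 1 in 20 groups by chance, but this rate cannot be set against the 11. For *Bmp4* and *Smad6*, a lone sample with reads among samples at 0 is flagged whatever its value. The same samples also enter groups of 8 and of 4. *Id4* was highest in *Dbx2* replicate 8 (8.10 CPM, with 4.93 CPM the next among 8 samples) and lowest of its 4 in *Dbx2* replicate 3 (2.61 CPM). *Bmp4* stood out in *Dbx2* replicate 6 (1.24 CPM), both among 8 and among 4 samples, and in *Dbx2* replicate 1 (0.32 CPM). *Smad6* stood out in *GFP* replicates 3 (0.33 CPM) and 7 (0.34 CPM) and in *Dbx2* replicate 6 (0.62 CPM, among 8 and among 4 samples); these *Bmp4* and *Smad6* values are 1 to 4 reads against 0. *Dbx2* was highest in *Dbx2* replicate 1 (232.13 CPM), and *Tcf3* was lowest among the *GFP*-NSPCs numbered 5 to 8 in replicate 8 (103.63 CPM).

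The change between transgenes differed between the sets of numbers, by the interaction term in limma, for 6 of 18 genes, where 9.44% of all tested genes were called. The 18 are the 8 tested *Id* and BMP genes, *Dbx2* and the pathway genes named by their p in these data. Their share is therefore not comparable with that of all tested genes. Without this choice, 1 of the 8 *Id* and BMP genes and 10 of the 50 tested pathway genes were called. The log2 fold change in the numbers 5 to 8 exceeded that in the numbers 1 to 4 by 0.66 for *Id2*, 1.45 for *Dbx2*, 1.16 for *Hey1* and 1.49 for *Neurod1*, and it was the lower one for *Fstl1* (-1.13) and *Tcf12* (-0.64). The call of *Neurod1* was lost in 11 of 26 alternatives (adjusted p up to 0.0997), among them 8 of 16 that leave out 1 sample (*GFP* replicates 2, 3, 5 and 8 and *Dbx2* replicates 2, 6, 7 and 8), and that of *Id2* in 12 of 26.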

How the results depend on the processing

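Over all samples, the calls of *Id1*, *Id3* and *Bmpr1b* held in all 27 alternatives, with log2 fold changes of 0.72 to 0.82, -1.02 to -0.76 and -1.53 to -1.13, and that of *Dbx2* did too (1.02 to 1.47); the call of *Id4* did not. The count of *Id* and BMP genes called in the numbers 1 to 4 went from 2 to 4 with 4 groups in 1 fit (2 to 3 when 1 sample was left out), adding *Id2* and *Id3*. Over all 12533 tested genes the calls went from 1950 to 2563 with 4 groups in 1 fit. The count whose change differed between the sets was 0 instead of 1 with no filter and without trend, and 0 to 2 when 1 sample was left out. The other pathway genes called were 7 in the main comparison, 13 with the replicate block and 12 with the number set as a covariate (6 to 10 when 1 sample was left out). Over all 12533 tested genes the calls rose as well, from 1982 to 2723 with the block and 3034 with the covariate. Among the *Id* and BMP genes the block in limma ended no call and added those of *Id2* in the numbers 1 to 4 (0.0130) and *Bmpr1a* in the numbers 5 to 8 (0.0482). The block also added the calls of *Dbx2* (0.00557) and *Tcf3* (0.0117) in the numbers 1 to 4. Over all samples it added those of *Chrdl1*, *Crim1*, *Htra1*, *Junb*, *Tcf4* and *Tob1*. Within a set of numbers, same-numbered samples hardly deviated together, which limits the calls added there. Over all samples the block also takes out the difference between the sets of numbers.

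The signs that turned belong to changes that were not called. The difference between the sets turned for *Id4* to 0.0819 with a pseudocount of 2, 0.0136 with quantile scaling, 0.215 with edgeR and 0.210 with DESeq2, and ranged from -0.44 to 0.36 when 1 sample was left out. That of *Bmpr1b* ranged from -0.46 to 0.11 and that of *Bmpr2* from -0.0172 to 0.0636 when 1 sample was left out. *Smad1* in the numbers 5 to 8 turned to 0.00096 with median-of-ratios and 0.0105 with quantile scaling, and ranged from -0.119 to 0.0721 when 1 sample was left out. The cause of these shifts was not tested. *Id4* could not be tested with the filter on a mean of at least 10 CPM. Depth limits *Id4*, *Bmp4* and *Smad6*, with at most 24, 4 and 2 reads in a sample. It also limits *Neurod4* in the numbers 1 to 4, with 15 reads over the *GFP*-NSPCs and 0 over the *Dbx2*-NSPCs.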
